A study of Mus musculus with 12 samples.

Results

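Nupr1, Trib3, Chac1, Slc7a3, Xbp1, Hspa1b and Cryab are 7 genes of the integrated stress response, the unfolded protein response and the heat shock response, picked by name. All 7 are among the 2416 rows that the authors listed as changed in neural progenitor cells, and 0 of the 7 are among the 111 rows listed in embryonic fibroblasts. Of all protein-coding gene names 9.71% are listed in the progenitors and 0.470% in the fibroblasts. The 7 genes were picked with earlier results of these data known, so neither count is a result about them. The first 4 genes named belong to the amino acid response and the other 3 to protein folding. Neural progenitor cells (NPC) and mouse embryonic fibroblasts (MEF) were given 50 nM 4-hydroxytamoxifen (4-OHT) for 24 h to delete Prmt5, and were set against cells of the same type given ethanol. All 4 groups of 3 libraries share the conditional genotype Prmt5 F/FER on a mixed C57BL/6 X 129S1/SvlmJ background, and the labels name neither the recombinase nor its promoter. NPC were neurospheres from the E14.5 cortex at day 4 with growth factors, and MEF were passage 1 cells from E14.5 embryos. No library comes from cells that lack the floxed allele and received 4-OHT, so the effects of 4-OHT and of Prmt5 loss cannot be told apart.

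When eIF2 alpha is phosphorylated by a stress-sensing kinase, general translation falls while the transcription factor ATF4 is made, and ATF4 turns on genes of amino acid transport and synthesis. That branch also answers amino acid shortage alone, through the kinase GCN2 (Eif2ak4). Misfolded protein in the endoplasmic reticulum (ER) in addition activates IRE1, which splices Xbp1 mRNA, and ATF6, and these raise ER chaperones. Misfolded protein in the cytosol acts through HSF1 on genes such as Hspa1b. PRMT5 methylates arginines of many proteins, among them the Sm proteins that build spliceosomal particles.

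The promoter windows of Nupr1, Trib3 and Chac1 are shown because these genes rose together and each window holds letters of the element known to bind ATF4 and its partners, searched as TGATGNAA on both strands. RefSeq windows of 300 bases, from 250 before to 50 after the annotated start (build GRCm38.p6), matched 5 of the 7 members by symbol; Slc7a3 and Cryab had no entry. Each is printed 5′ to 3′ along the strand of its gene. The capitals mark the match, which lies on the opposite strand in each of these windows.
Nupr1 promoter, chr7:126625421-126625720, minus strand: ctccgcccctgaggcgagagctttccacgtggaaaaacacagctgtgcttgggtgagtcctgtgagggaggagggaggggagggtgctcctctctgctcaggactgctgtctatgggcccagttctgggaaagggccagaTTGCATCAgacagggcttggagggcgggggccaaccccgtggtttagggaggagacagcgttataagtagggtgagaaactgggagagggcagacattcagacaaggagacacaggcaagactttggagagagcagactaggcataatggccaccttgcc
Trib3 promoter, chr2:152344011-152344310, minus strand: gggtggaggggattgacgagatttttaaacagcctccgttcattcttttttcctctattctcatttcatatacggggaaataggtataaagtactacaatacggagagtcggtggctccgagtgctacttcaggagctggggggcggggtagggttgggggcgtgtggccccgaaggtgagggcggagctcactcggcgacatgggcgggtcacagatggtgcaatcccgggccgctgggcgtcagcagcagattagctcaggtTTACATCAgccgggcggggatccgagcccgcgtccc
Chac1 promoter, chr2:119350992-119351291, plus strand: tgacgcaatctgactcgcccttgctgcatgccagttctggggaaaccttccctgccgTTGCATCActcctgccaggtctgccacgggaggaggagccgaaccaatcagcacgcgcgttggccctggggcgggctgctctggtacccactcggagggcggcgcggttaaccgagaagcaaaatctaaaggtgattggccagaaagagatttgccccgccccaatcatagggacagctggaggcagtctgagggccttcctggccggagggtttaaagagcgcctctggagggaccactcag
With the annotated start base counted as 0, the Nupr1 match ran from -110 to -103, the Chac1 match from -193 to -186 and the Trib3 match from 14 to 21. Nupr1 and Chac1 hold the same letters, TGATGCAA read on the opposite strand, and Trib3 holds TGATGTAA. The windows of Xbp1 and Hspa1b hold neither this element nor the other motifs searched on both strands. Those were the ER stress element (CCAAT, 9 bases of any kind, CCACG), the unfolded protein response element (TGACGTGG), and the heat shock element (GAA, TTC and GAA, or TTC, GAA and TTC, each 2 bases of any kind apart). The heat shock forms can overlap each other. Only these exact forms were searched, in these windows, so a missing match does not show that an element is absent.

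In NPC, the amino acid response members all rose with 4-OHT, by 2.95-fold to 5.10-fold, while the folding members split. Cryab rose by 8.11-fold, and Xbp1 and Hspa1b fell. Prmt5 itself was at 4.92 RPKM in 4-OHT NPC and 33.4 RPKM in ethanol NPC, and at 3.76 RPKM in 4-OHT MEF and 20.96 RPKM in ethanol MEF, in the authors' deposited table. RPKM is a read count scaled to transcript length and library size, and the table has 1 value for each arm of 3 libraries, and the spread between its replicates is not known. Read totals of the libraries are not stated in the labels or file headers, and the depth behind these values is therefore unknown. A gene is listed where its unadjusted Cuffdiff p is under 0.05 and its change exceeds 1.5-fold. Of 21924 protein-coding gene names in the GENCODE annotation 9.71% are listed in NPC, 5.61% as higher and 4.09% as lower. The 7 genes were picked with earlier results of these data known, so their own count is not read against these shares.

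**Figure D1:**
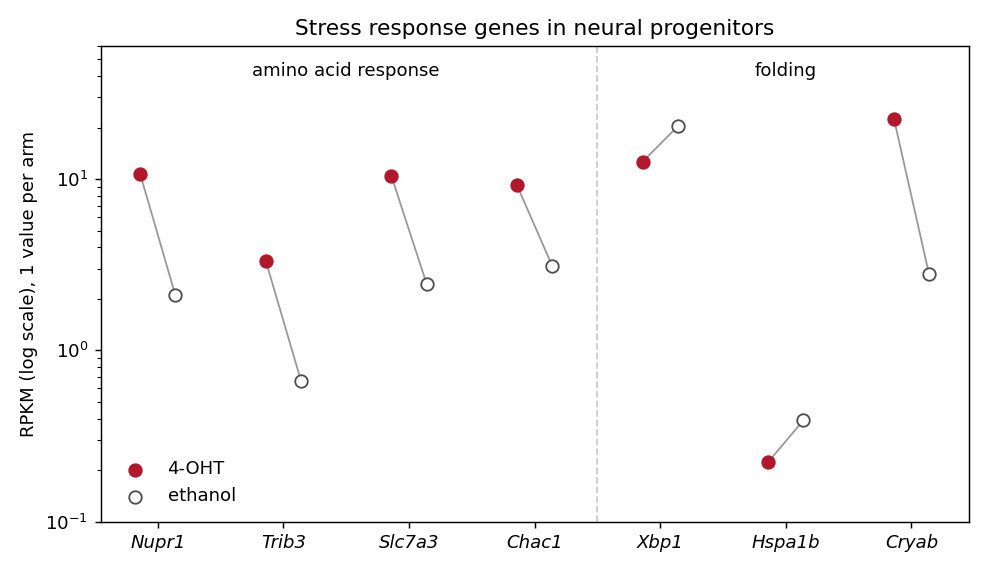
RPKM of the 7 genes in neural progenitors on a log axis, with 4-OHT as filled red points and ethanol as open points, 1 value per arm and no error bar because the deposited table gives none. The filled point is above the open one for the 4 amino acid response genes and Cryab, and below it for Xbp1 and Hspa1b.

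Nupr1, which encodes a small stress-induced nuclear protein, was at 10.7 RPKM in 4-OHT NPC and 2.10 RPKM in ethanol NPC in the authors' deposited table. The authors' deposited table gives this a log2 fold change of 2.35 and a p of 0. Trib3, a pseudokinase that ATF4 and CHOP induce and that restrains them, was at 3.33 RPKM in 4-OHT NPC and 0.667 RPKM in ethanol NPC in the authors' deposited table. Its log2 fold change of 2.32 was next to that of Nupr1 although its level was lower in both arms, and it was 1.38 with a pseudocount of 1 RPKM. Bulk RNA cannot tell apart a change in RNA per cell from a change in how many cells express a gene.

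Slc7a3, a transporter of cationic amino acids such as arginine and lysine, was at 10.4 RPKM in 4-OHT NPC and 2.45 RPKM in ethanol NPC, up by 2.09 on the log2 scale, in the authors' deposited table. Chac1, an enzyme that breaks down glutathione, was at 9.21 RPKM in 4-OHT NPC and 3.12 RPKM in ethanol NPC in the authors' deposited table. Chac1 had the smallest rise of the 4 members, at 1.56 on the log2 scale with a Cuffdiff p of 2.00e-15 in the authors' deposited table. The levels of Nupr1, Slc7a3 and Chac1 stood close together in both arms, and Trib3 stood below them.

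Xbp1, the transcription factor of the IRE1 branch, was at 12.7 RPKM in 4-OHT NPC and 20.4 RPKM in ethanol NPC in the authors' deposited table. It fell by 0.69 on the log2 scale, with a Cuffdiff p of 5.16e-06 in the authors' deposited table. The expression value does not separate spliced from unspliced Xbp1 mRNA, and Xbp1 has no event in the splicing tables.

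Hspa1b, a stress-inducible cytosolic chaperone of the Hsp70 family, was at 0.223 RPKM in 4-OHT NPC and 0.391 RPKM in ethanol NPC in the authors' deposited table. Its log2 fold change was -0.81 with a Cuffdiff p of 0.0179 in the authors' deposited table, the highest p of the 7, and with a pseudocount of 1 RPKM it was -0.19, under 1.5-fold. With all 55341 annotated names counted as tested, its Benjamini-Hochberg adjusted p is at most 0.455, so an adjusted p under 0.05 is not assured. The other 6 members had bounds of at most 0.000282 by the same calculation from the Cuffdiff p, and among all NPC rows 73.8% had a bound under 0.05. The coding sequences of Hspa1b and Hspa1a share 1918 of 1929 aligned bases (99.4%), with an identical run of 638 bases. Reads from the pair can be split by the counting, so the Hspa1b value is uncertain, and Hspa1a is not listed.

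Cryab, which encodes the small heat shock protein alpha B-crystallin, was at 22.6 RPKM in 4-OHT NPC and 2.79 RPKM in ethanol NPC in the authors' deposited table. Its log2 fold change of 3.02 was the largest of the 7, with a p deposited as 0 in the authors' deposited table. In the annotation Hspb2 overlaps Cryab on the opposite strand over 1030 bases. The TruSeq v2 kit does not mark strand, so reads there cannot be assigned to either gene, and Hspb2 is not listed.

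Cryab is also known as a gene of glia and muscle, and markers of other cell types were listed in NPC too, beside 9.71% of all protein-coding names. Of 10 astrocyte markers 5 were listed, all higher, with a summed level of 139 RPKM in 4-OHT NPC and 79.2 RPKM in ethanol NPC. Most of that sum was Aldh1l1, at 118 RPKM in 4-OHT NPC and 67.7 RPKM in ethanol NPC in the authors' deposited table. Of 12 oligodendrocyte markers 5 were listed, 4 of them higher, summing to 23.8 RPKM in 4-OHT NPC and 10.6 RPKM in ethanol NPC. Mbp of myelin was at 10.4 RPKM in 4-OHT NPC and 2.35 RPKM in ethanol NPC in the authors' deposited table. Of 12 neuron markers 6 were listed, 5 of them higher, summing to 13.3 RPKM in 4-OHT NPC and 7.32 RPKM in ethanol NPC. The muscle marker Myl9, the only listed marker of 9, was at 5.90 RPKM in 4-OHT NPC and 3.61 RPKM in ethanol NPC in the authors' deposited table. Fibroblast markers had 1 of 9 listed (Postn, 0.396 RPKM in 4-OHT NPC and 0.214 RPKM in ethanol NPC). Endothelial and blood markers had 2 of 9 listed, summing to 0.258 RPKM in 4-OHT NPC and 0.146 RPKM in ethanol NPC. None of the 10 microglia and macrophage markers was listed. The bound of the adjusted Cuffdiff p was under 0.05 for 4 astrocyte, 5 oligodendrocyte, 3 neuron and 1 muscle markers. It was so for 0 fibroblast and 0 endothelial and blood markers. Gjb6 of astrocytes, at 0.082 RPKM in 4-OHT NPC and 0.017 RPKM in ethanol NPC, had a bound of 0.962. Stmn2 of neurons, at 0.108 RPKM in 4-OHT NPC and 0.032 RPKM in ethanol NPC, had a bound of 0.677. No listed marker was at 0, and markers that are not listed have no value. Of 10 progenitor markers Hes5 alone was listed, at 4.77 RPKM in 4-OHT NPC and 15.8 RPKM in ethanol NPC in the authors' deposited table. The other 9 progenitor markers have no value here, so the progenitor label was checked against Hes5 alone. The part of these markers in the rise of Cryab or of the amino acid response genes was not tested.

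The order of the 7 changes was compared using a standard error for each gene, derived from its p under a normal distribution. For the 4 members with a p of 0 such an error is an upper limit, so their intervals are the widest that the p allows. The 95% intervals of the log2 fold change were 2.30 to 3.74 for Cryab, 1.79 to 2.91 for Nupr1, 1.77 to 2.88 for Trib3 and 1.59 to 2.59 for Slc7a3. They were 1.18 to 1.95 for Chac1, -0.98 to -0.39 for Xbp1 and -1.48 to -0.14 for Hspa1b. Among neighbors in this order, the difference excluded 0 for Chac1 over Xbp1 alone, at 2.25 (95% interval 1.76 to 2.73). That outcome was fixed by the listing and is no separate result. A higher and a lower gene, each with a Cuffdiff p under 0.05, must differ in this way. Cryab exceeded Nupr1 by 0.67 (-0.24 to 1.58) and Slc7a3 exceeded Chac1 by 0.53 (-0.10 to 1.16), so these pairs were not resolved. The other neighbors differed by 0.03 to 0.23, with intervals that include 0. The intervals of the amino acid response members lie apart from those of Xbp1 and Hspa1b. The listing fixes this too, since the interval derived for a gene with a Cuffdiff p under 0.05 excludes 0. The interval of Cryab overlaps those of Nupr1, Trib3 and Slc7a3.

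**Figure D2:**
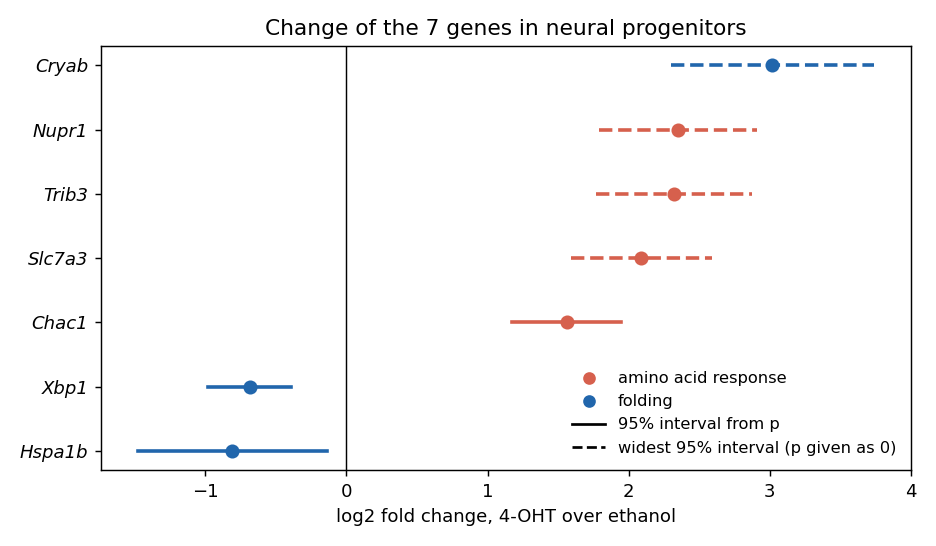
Log2 fold change of 4-OHT over ethanol in neural progenitors for the 7 genes, with lines for the 95% interval derived from the deposited p (dashed where a p of 0 makes it an upper limit). The amino acid response genes and Cryab lie between 1.56 and 3.02, and Xbp1 and Hspa1b at -0.69 and -0.81.

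By size of change, Cryab ranked 8th of the 824 higher genes that reach 1 RPKM in the higher arm. Nupr1, Trib3, Slc7a3 and Chac1 ranked 25th, 27th, 40th and 92nd of the same 824 genes. Xbp1 ranked 636th of 918 lower genes at that level, and Hspa1b did not reach it. Over all 1367 higher rows, Cryab, Nupr1, Trib3, Slc7a3 and Chac1 ranked 34th, 91st, 95th, 137th and 284th. Over all 1049 lower rows, Hspa1b ranked 435th and Xbp1 742nd. The members were picked with earlier results known, so their ranks are a description. The rises also moved the genes up in level. In ethanol NPC, 44.4% of listed rows were below Nupr1 and 48.1% below Cryab. In 4-OHT NPC the same shares were 74.4% and 86.7%.

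**Figure D3:**
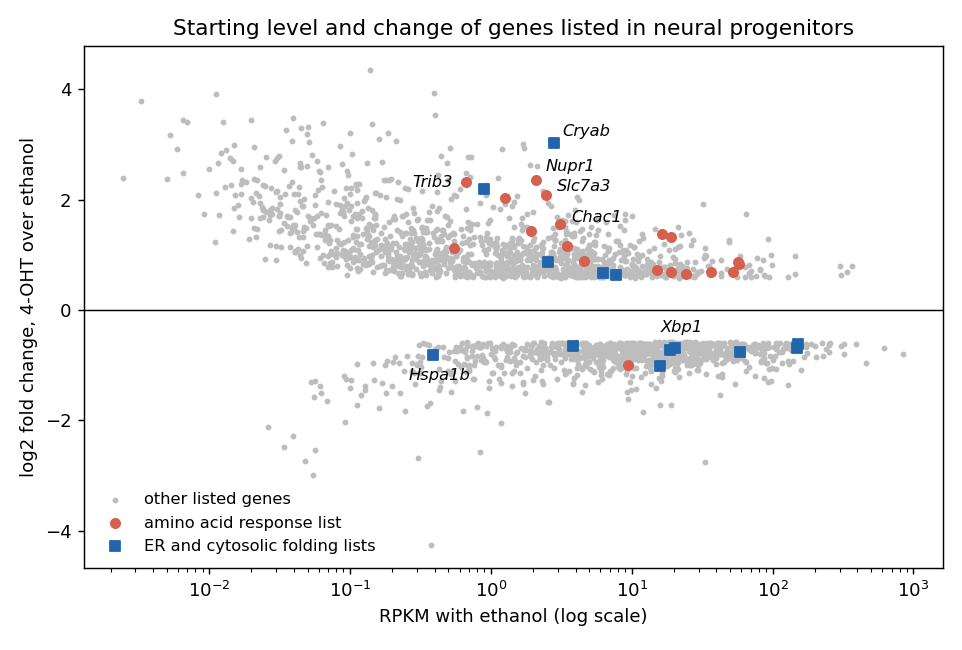
Log2 fold change of 4-OHT over ethanol against RPKM with ethanol (log axis) for genes listed in neural progenitors with a value above 0 in ethanol. Red points are the amino acid response list, blue squares the ER and cytosolic folding lists, and the empty band around 0 is set by the listing at 1.5-fold.

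Of 39 genes known as ATF4 targets or factors 19 were listed in NPC (48.7% of the list, against 9.71% of all protein-coding names), 18 of them higher and 1 lower, and 20 have no value. Among all listed rows 56.6% were higher. The median log2 fold change was 1.13 over the 19 genes and 0.66 over all listed rows. How many genes Cuffdiff tested is not known, and the list was chosen with earlier results in view, so these shares are a description. The list is a selection. It leaves out the 20 cytosolic aminoacyl-tRNA synthetase genes, kept as a list of their own, of which 1 was listed, as lower. Without the 4 members, 14 of the 15 listed genes were higher. Without Atf3, Ddit4, Gdf15 and Sesn2, which p53 is also known to induce, 14 of 15 were higher too. The genes left out are higher ones in both settings, so both counts follow from the 18 of 19 and are no separate result. A part of p53 in these changes was not tested.

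Of the 9 amino acid transporter genes in the list 6 were listed (66.7%, against 9.71% of all protein-coding names), 5 higher and 1 lower. Of these 6, 83.3% were higher, against 56.6% of all listed rows. The list was chosen with earlier results known, so these shares are a description. Slc7a5 and Slc3a2, the light and heavy chains of the LAT1 exchanger of large neutral amino acids, stood at nearly the same level in each arm. Slc7a5 was at 104 RPKM in 4-OHT NPC and 58.2 RPKM in ethanol NPC in the authors' deposited table. Slc3a2 was at 104 RPKM in 4-OHT NPC and 56.8 RPKM in ethanol NPC in the authors' deposited table. Slc7a11, the cystine transporter that also pairs with Slc3a2, was at 5.20 RPKM in 4-OHT NPC and 1.92 RPKM in ethanol NPC, up by 1.44 on the log2 scale, in the authors' deposited table. For the glycine transporter gene Slc6a9 the authors' deposited table has a log2 fold change of 0.72. The exception was the glutamine transporter gene Slc1a5, at 4.73 RPKM in 4-OHT NPC and 9.41 RPKM in ethanol NPC in the authors' deposited table, where its log2 fold change is -0.99.

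Among the listed enzymes, Cth, which releases cysteine from cystathionine, was at 7.71 RPKM in 4-OHT NPC and 3.46 RPKM in ethanol NPC in the authors' deposited table. Cbs, the step before it, was at 37.9 RPKM in 4-OHT NPC and 24.2 RPKM in ethanol NPC in the authors' deposited table. Asparagine synthetase Asns, a classical ATF4 target, was at 84.7 RPKM in 4-OHT NPC and 52.3 RPKM in ethanol NPC in the authors' deposited table. None of the 5 enzymes of serine and one-carbon synthesis (Phgdh, Psat1, Psph, Shmt2 and Mthfd2) was listed, and their values are therefore not known.

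Regulators and secreted factors of the response were listed at a range of levels. Gdf15, a secreted stress cytokine, was at 5.16 RPKM in 4-OHT NPC and 1.27 RPKM in ethanol NPC, 4.08-fold higher, in the authors' deposited table. Sesn2 and Ddit4, both inhibitors of mTORC1 signalling, were up by 1.32 and 1.38 on the log2 scale in the authors' deposited table. The mTORC1 substrate and translation repressor Eif4ebp1 had 0.69 in the authors' deposited table. Atf3 and Atf5 were the listed transcription factors, 2 of 7 (28.6%, against 9.71% of all protein-coding names), a share that is a description too. They were up by 1.13 and 0.69 on the log2 scale in the authors' deposited table. The Atf5 bound of the adjusted p was 0.0776. Atf4 and Ddit3 (CHOP) are not listed. In the authors' deposited table the lipoprotein receptor gene Vldlr has a log2 fold change of 0.89.

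Of 20 cytosolic aminoacyl-tRNA synthetase genes Vars alone was listed, at 20.4 RPKM in 4-OHT NPC and 33.4 RPKM in ethanol NPC in the authors' deposited table. Of 16 genes of eIF2 kinases, phosphatase subunits and eIF2 and eIF2B factors Eif2b3 alone was listed, at -0.66 on the log2 scale in the authors' deposited table. No kinase of eIF2 alpha is listed. These shares, 5.00% and 6.25%, are near the 9.71% of all protein-coding names listed in NPC and are no result about these groups.

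Of 46 ER folding genes 6 were listed (13.0%, near the 9.71% of all protein-coding names), 3 higher and 3 lower. The other 40 have no value. The median log2 fold change over the 6, at 0.01, lies between the 3 higher and the 3 lower genes. No listed gene can lie near it, because the listing leaves out changes under 1.5-fold. Sdf2l1, an ER chaperone cofactor and known target of the ER stress factors, was at 7.84 RPKM in 4-OHT NPC and 15.9 RPKM in ethanol NPC in the authors' deposited table, where its log2 fold change is -1.02. The disulfide isomerase gene Pdia6 was at 98.4 RPKM in 4-OHT NPC and 151 RPKM in ethanol NPC in the authors' deposited table. Xbp1 was the other lower gene. Creb3l1, an ER membrane-bound transcription factor, was at 4.09 RPKM in 4-OHT NPC and 0.893 RPKM in ethanol NPC in the authors' deposited table, where its log2 fold change is 2.20. The ER oxidase Ero1l and the ER cochaperone Dnajb9 were up by 0.64 and 0.67 on the log2 scale in the authors' deposited table. The main ER chaperones Hspa5, Hsp90b1, Calr and Canx are not listed.

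Of 46 cytosolic heat shock and chaperone genes 7 were listed (15.2%, against 9.71% of all protein-coding names), 2 higher and 5 lower, with a median log2 fold change of -0.70. The Hsp90 cochaperone Fkbp4 was at 91.3 RPKM in 4-OHT NPC and 148 RPKM in ethanol NPC in the authors' deposited table. Stub1, a ubiquitin ligase that binds chaperones, and Fkbp5, which binds Hsp90, stood at -0.76 and -0.73 on the log2 scale in the authors' deposited table. Hspb6 had -0.66 in the authors' deposited table, with an adjusted p bound of 0.139, and Hspa1b was the fifth. Besides Cryab the higher gene was Hspb8, another small heat shock protein gene, up by 0.86 on the log2 scale in the authors' deposited table. Of 12 mitochondrial chaperone and protease genes the protease gene Htra2 alone was listed, at -0.88 on the log2 scale in the authors' deposited table. That share, 8.33%, is near the 9.71% of all protein-coding names and is no result about this group.

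Set side by side, 18 of 19 listed amino acid response genes were higher (94.7%), against 5 of 13 listed ER and cytosolic folding genes (38.5%) and 56.6% of all listed rows. The listed share was 48.7% of the amino acid list and 14.1% of the 92 folding genes. No test was run between the lists, since they were chosen with results known.

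**Figure D4:**
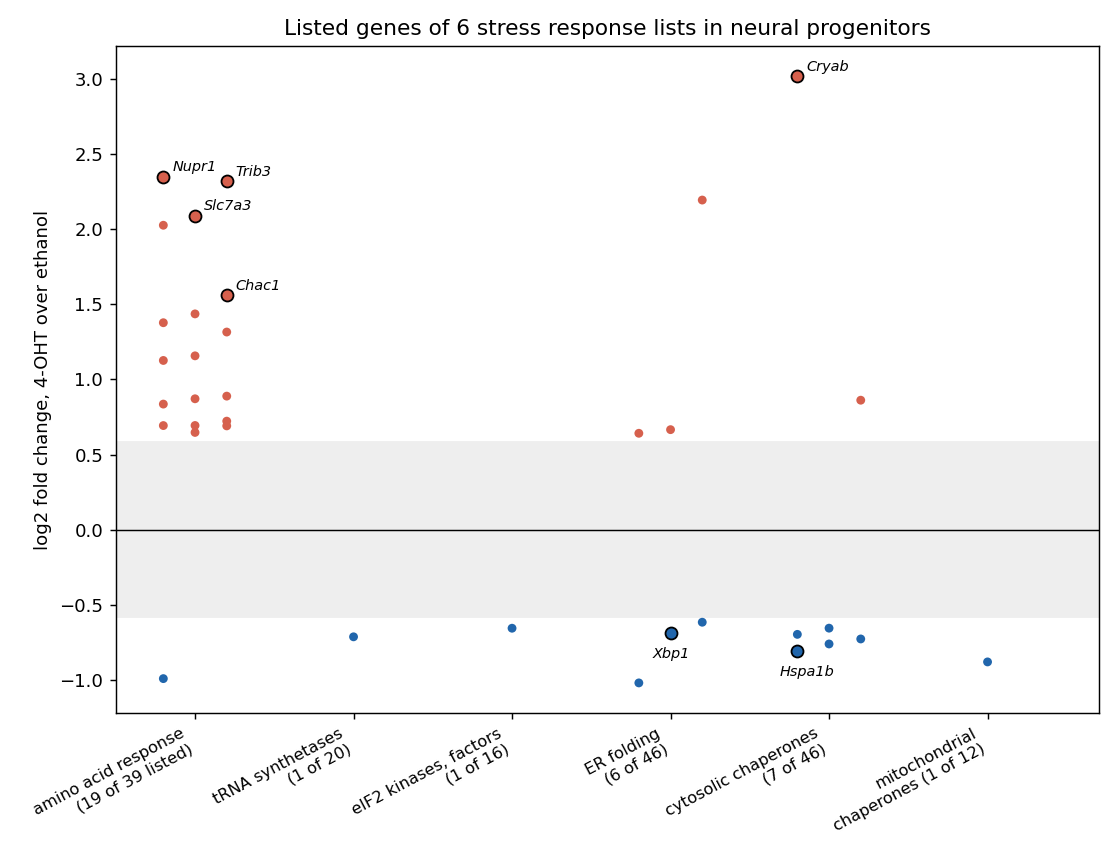
Log2 fold change of 4-OHT over ethanol for every listed gene of 6 stress response lists in neural progenitors, with the 7 members outlined and named; the grey band is the range that the listing leaves empty. The amino acid response list has 18 genes above 0 and 1 below, and the ER folding and cytosolic chaperone lists have 3 and 2 above and 3 and 5 below.

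The promoter windows of the list genes were searched for the same elements. TGATGNAA was present for 7 of the 14 higher amino acid response genes with a window (50.0%), for 11 of 34 genes of the whole list (32.4%) and for 3 of 77 folding genes (3.90%). Among all 27025 genes with a window 4.51% held it. Besides Nupr1, Trib3 and Chac1 the higher genes with a match were Asns, Atf3, Slc7a11 and Vldlr, and Slc7a11 held 2 matches. Membership of such a list rests partly on known elements of this kind, so the share is not independent of the list. The ER stress element was present for 10 of 77 folding genes (13.0%) and 0.137% of all genes. Of the 10 listed folding genes with a window Pdia6 alone held it, from -98 to -80. The unfolded protein response element was present for 3 of 77 folding genes and 0.714% of all genes, and the heat shock element for 3 of 77 and 0.662%. A match is a string of letters and not a measured binding site.

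**Figure D5:**
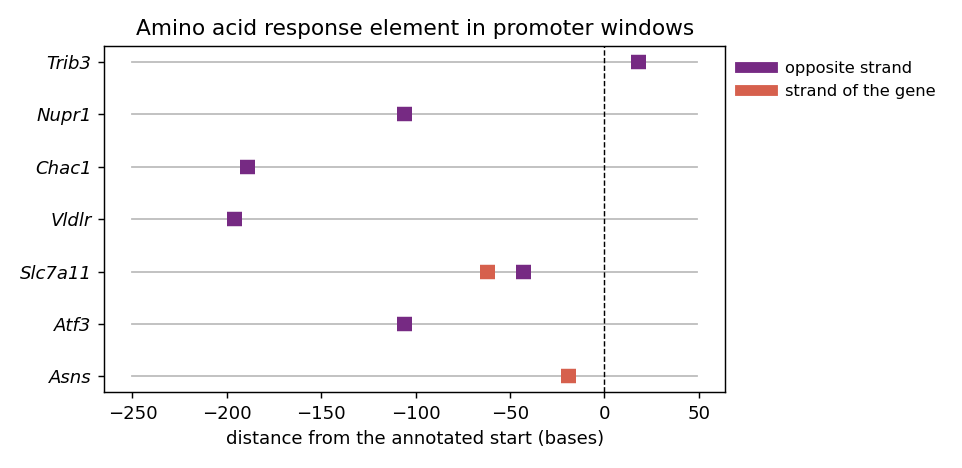
Position of TGATGNAA matches, in bases from the annotated start, in the promoter windows of the 7 higher amino acid response genes that hold one; grey lines span the window. The matches of Nupr1, Trib3 and Chac1 are on the opposite strand, and that of Trib3 lies after the start.

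The genes whose 2 values lay nearest to each member were found by distance in log2 RPKM over the 4-OHT and ethanol arms of NPC. Mbp, a myelin gene, was nearest to both Nupr1 (distance 0.163) and Slc7a3 (0.0629). The next were Svop for Nupr1 (0.197) and the death receptor gene Tnfrsf10b for Slc7a3 (0.116). Trib3 was nearest to Dusp15 (0.165) and Klhdc7a (0.219), and Chac1 to Fam131a (0.0923) and the apoptosis gene Pmaip1 (0.109). Xbp1 lay by Nup43 (0.0458) and Mpi (0.0615), and Hspa1b by Glb1l2 (0.124) and Coch (0.145). Cryab had no close neighbor, with Olfr287 at 0.702 and Apobec1 at 0.740. With 2 values per gene this is a likeness of level and change only.

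None of the 7 members has an event among 255 splicing events listed in NPC and 71 in MEF. In the 6 lists fall 4 events, 2 in NPC and 2 in MEF. The share of all genes with an event was not counted, so these counts are no result about the members or lists. In NPC, a 71-base Slc1a5 intron, at chr7:17381302-17381372 (mm9), was listed in 2 of 3 pairs of libraries. It lies between exons 7 and 8 of 9 by its length in GENCODE. Its deposited inclusion level, which stands for the intron-retaining form, was 1 in both 4-OHT libraries, against 0.337 and 0.353 in the ethanol libraries. The level is not the plain share of reads, here and in the events below. The ethanol libraries had 25 and 24 reads of the retained form and 19 and 17 of the spliced form. The 4-OHT libraries had 15 and 18 reads of the retained form and 0 of the spliced form. That allows a spliced share of reads of up to 20.0% and 16.7% by counting error alone. These limits are on the scale of reads and cannot be set against the levels. The deposited p was 0.00173 and 0.000982 in the authors' deposited table. Slc1a5 is the amino acid response gene that was lower in NPC.

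The other NPC event was exon 5 of 8 of Eif2s1, which encodes the alpha subunit of eIF2, the protein whose phosphorylation starts the response. The exon has 107 bases, at chr12:79980938-79981044 (mm9), a length that is no multiple of 3. It was included at a level of 1 in both listed 4-OHT libraries, against 0.338 and 0.435 in the ethanol libraries. Reads that skip the exon numbered 0 and 0 in the 4-OHT libraries, against 6 and 25 in the ethanol libraries. The deposited p was 7.28e-06 and 2.95e-05 in the authors' deposited table, and the gene's level is not listed as changed. The ethanol library with 6 skipping reads had 17 reads in all, so that level is coarse.

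In MEF, exon 2 of 8 of Pycr1, a proline synthesis gene of the amino acid response list, was listed in 2 of 3 pairs (129 bases, chr11:120504473-120504601, mm9). Its inclusion level was 0.746 and 0.754 in the 4-OHT libraries and 1 in both ethanol libraries, with deposited p of 0.0112 and 0.0355 in the authors' deposited table. Skipping reads numbered 6 and 5 beside 130 and 113 inclusion reads in the 4-OHT libraries, so the shift in level rests on few reads. The ethanol libraries had 0 skipping reads beside 219 and 153 inclusion reads, which allows a skipped share of reads of up to 1.37% and 1.96%. Cct4, a subunit of the cytosolic chaperonin, had a pair of mutually exclusive exons of which the first, exon 3 of 14 (90 bases, chr11:22894298-22894387, mm9), was used at 0.368 and 0.391 in 4-OHT libraries and 0.658 and 0.647 in ethanol libraries. Its deposited p was 0 and 1.11e-16 in the authors' deposited table. In the 2 listed pairs the groups do not overlap in any of the 4 events, but events were listed for a difference of that kind. How many of all events share this was not counted, so it is no result about these genes. The remaining pair of each is not listed, and 2 libraries against 2 allow no exact test under 0.05.

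In MEF, the level of no member and of 0 of the 178 genes in the 6 lists is listed. Only 0.470% of protein-coding names are listed in MEF, so an absence from so short a list is not a result about these genes. A gene that is not listed has no RPKM value, and a difference of the response between NPC and MEF was not tested.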

How the data were processed

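Total RNA libraries (TruSeq v2) were made for 3 samples per group, and the labels do not say whether these were separate cultures. The notes name the genome mm9, the aligners TopHat2 2.03 and Bowtie2 2.0.0.6, and Cuffdiff 2.02 for the comparison, per the submitters' processing notes. Per the file headers, the authors deposited 1 RPKM value per arm, the log2 ratio of 4-OHT over ethanol and an unadjusted p-value for listed genes only. The splicing tables deposited by the authors hold the count of inclusion and exclusion reads and the inclusion level as a fraction of 1 for each pair of libraries. A signed level difference, deposited there as a score, was not used. Event starts count from 0 in the files and are written here from 1.

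From these, with Python 3.11.15, the log2 fold change was recomputed (largest gap 1.18e-05). The Benjamini-Hochberg adjusted p was bounded from above by counting all 55341 GENCODE M21 gene names as tested, and standard errors were derived from the p-value, with p of 0 set to 2.22e-16. Both were run on data simulated under the same normal distribution that was used to derive the errors. That checks the calculation only, and whether Cuffdiff p-values follow such a distribution was not tested. The fits planned for values per library were not possible with 1 value per arm. Members and gene lists (amino acid response, aminoacyl-tRNA synthetases, eIF2, ER folding, cytosolic chaperones, mitochondrial chaperones and cell markers) were chosen with earlier results of these data known. Genes named are the members, the listed genes of these lists and the 2 nearest neighbors. Alternatives were a pseudocount, filters on level, p and fold, and lists without members. Limits of 0 counts cover counting error only. The intervals of fold changes cover no more error than the Cuffdiff p they were derived from.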

Additional observations from a re-analysis of the deposited data

How the results depend on the processing

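All 14 fold changes of the members with a pseudocount of 0.1 or 1 RPKM kept their direction. Hspa1b alone lost its place past 1.5-fold, at -0.19 with a pseudocount of 1 RPKM, and its adjusted p bound was 0.455. Trib3 moved from 2.32 to 1.38 with that pseudocount, and the fold change of no member besides these 2 moved by over 1.5 times; low values shrink by construction under a pseudocount. The other 6 members kept a bound under 0.05.

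Among genes changed by at least 1 on the log2 scale, the amino acid response list had 10 higher and 0 lower genes, the ER folding list 1 higher and 1 lower, and the cytosolic chaperone list 1 higher and 0 lower. Above a floor of 5 RPKM in the higher arm the cytosolic chaperone list had 1 higher and 3 lower genes, and without the members it had 1 higher gene. These settings drop genes by construction. The other list counts stayed within 1.5 times of those as listed, also without genes that p53 induces, a setting chosen after seeing the data. All genes left out in that setting are higher ones, so its count was fixed beforehand.

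No paired analysis was possible because the expression tables hold 1 value per arm, and each splicing event named is listed in 2 pairs whose codes match no label. No replicate was left out, for the same reason.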
